A study of Homo sapiens with 6 samples.

Results

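Zinc finger genes of human chromosome 19 were examined in Huh7, a long-established line of human hepatocellular carcinoma cells, carrying either a control short hairpin RNA (shcontrol, 3 libraries) or a short hairpin RNA against TRIM15 (shTRIM15, 3 libraries). All cells were grown in RPMI-1640 with fetal bovine serum, and mRNA-enriched RNA was sequenced from directional libraries. The genes were taken by name, biotype and position, with earlier results of these data known. They were all protein-coding genes on chromosome 19 whose symbol is ZNF followed by a number. This gave 249 genes of 58735 gene rows, 239 of which carry the table's own C2H2 zinc finger family label. The labels do not say how many hairpins were used or whether replicates were separate cultures, so p-values measure the spread between these libraries, which may be technical. TRIM15 itself, the targeted gene, was at 5.17, 5.09 and 4.88 FPKM (reads per gene relative to its length and to the library's size) in the control libraries and at 3.23, 2.11 and 2.51 FPKM in the knockdown libraries. That is 51.8% of the control mean (limma adjusted p = 0.00416; two-sided exact permutation p = 0.1, the smallest that 3 against 3 libraries allow). Counted-back reads numbered 17715210 to 18217903 per control library and 17332508 to 19556855 per knockdown library. The hepatocyte markers ALB, AFP, APOA1, APOB, SERPINA1, TTR, HNF4A and FGB summed to 1518 to 1558 FPKM in control and 1514 to 1546 FPKM in knockdown libraries. All 4 endothelial and all 4 immune markers were below 0.5 FPKM in every library, with CDH5 and MS4A1 at 0. Among 5 fibroblast markers, COL1A2 (5.02 FPKM on average) and COL1A1 (0.914) were above that level. Of these markers, FGB fell from 271 ± 7.37 to 233 ± 6.01 FPKM (SD, n = 3; limma adjusted p = 0.00277) and COL1A2 from 5.39 ± 0.066 to 4.66 ± 0.25 FPKM (SD, n = 3; limma adjusted p = 0.0365). Their part in the results on zinc finger genes was not tested.

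C2H2 zinc finger proteins bind DNA through tandem fingers, each folded around a zinc ion that is held by a pair of cysteines and a pair of histidines. Many of the chromosome 19 genes arose by tandem duplication and also encode a KRAB domain, which recruits TRIM28 and, through it, the histone methyltransferase SETDB1 and heterochromatin proteins. KRAB zinc finger proteins are known for silencing transposable elements, each protein with its own set of targets.

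The fingers are what these genes share, and the coding sequence of the first finger is shown for the 4 largest rises and for the most abundant member, ZNF146. Sequences are from GENCODE 29 transcripts on GRCh38, written 5′ to 3′ on the gene's strand, with the cysteine and histidine codons in capitals.
ZNF761: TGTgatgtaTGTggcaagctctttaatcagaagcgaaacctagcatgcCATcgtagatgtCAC
ZNF616: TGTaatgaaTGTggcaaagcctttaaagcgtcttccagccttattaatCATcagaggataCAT
ZNF160: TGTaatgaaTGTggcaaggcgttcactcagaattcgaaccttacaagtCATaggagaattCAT
ZNF714: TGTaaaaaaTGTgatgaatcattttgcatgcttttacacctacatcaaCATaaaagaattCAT
ZNF146: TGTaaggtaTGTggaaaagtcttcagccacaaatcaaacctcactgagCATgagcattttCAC
Each of these 5 runs has 63 bases and lies within 1 exon, which is the last exon of the transcript. They are at chr19:53455237-53455299 (plus strand) for ZNF761, chr19:52116543-52116605 (minus strand) for ZNF616, chr19:53069697-53069759 (minus strand) for ZNF160, chr19:21117103-21117165 (plus strand) for ZNF714 and chr19:36236492-36236554 (plus strand) for ZNF146. ZNF160 and ZNF616 were the most alike of the 5, with 45 of 63 bases identical (71.4%), and ZNF761 and ZNF714 the least, with 29 (46.0%). Of the 249 members, 246 had at least 1 finger match, and 229 of these first fingers were in the last exon. The number of finger matches per gene ranged from 0 to 36 with a median of 12. ZNF208 had 36, and ZNF738 and the readthrough genes ZNF625-ZNF20 and ZNF816-ZNF321P had 0.

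Fingers are joined by a short conserved linker of 7 residues, and its coding sequence shows how alike these genes are at the base level. The 212 members with the linker held 1393 copies in 338 different spellings, and the 3 most frequent spellings are shown without capitals.
Most frequent linker: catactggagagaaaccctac
Next linker: catactggagagaaaccttac
Further linker: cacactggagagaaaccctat
The first was found 161 times in 36 members, the next 120 times in 42 members and the last 83 times in 40 members. Longer shared stretches matter more for counting reads. A median of 2.84% of the 50-base words of a member's transcript also occurred in a transcript of another gene, 63 members had 0 such words, and 62 members had 10% or more. The sources used here do not say how reads matching several genes were assigned, so values of those 62 genes are uncertain. A short pattern of the KRAB domain was found before the first finger in 209 members and not found in 40. Only the longest coding sequence of each gene was searched, so genes without a match may still encode the domain. Promoter windows of 300 bases from RefSeq (GRCh38.p14) matched 217 members, with a median GC content of 59.7% against 58.3% over 27305 promoters and a median of 20 CpG dinucleotides against 14.

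Most of the genes were expressed at low levels. Of 249 members, 183 reached 0.5 FPKM in 3 libraries or more and were tested, 56 were below that filter but above 0 in some library, and 10 were listed at 0 in all 6. The 10 were ZNF729, ZNF98, ZNF492, ZNF99, ZNF728, ZNF536, ZNF534, ZNF816-ZNF321P, ZNF677 and ZNF135, which were named because they are at 0. The tested members had a median of 1.83 FPKM and 160.7 reads, against 4.71 FPKM and 427.8 reads over all 14847 genes tested. Only 22 reached 5 FPKM. ZNF146, which consists almost wholly of fingers, was the most abundant at 33.3 FPKM on average, followed by ZNF787 at 22.4, ZNF428 at 16.3 and ZNF444 at 16.2 FPKM. None of these 4 matched the KRAB pattern. By contrast ZNF91, a KRAB protein with 31 finger matches that silences SVA retrotransposons, was at 3.73 ± 0.176 FPKM in control and 4.22 ± 0.239 FPKM in knockdown libraries (SD, n = 3).

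Summed over all 249 members, FPKM was slightly higher with the TRIM15 hairpin. The sum was 516.5, 520.9 and 518.6 FPKM in the control libraries and 549.0, 551.1 and 555.9 FPKM in the knockdown libraries. Each knockdown library was above each control library. The share of all reads that fell on members was 0.253, 0.255 and 0.256% in control and 0.273, 0.275 and 0.278% in knockdown libraries. In RNA from whole cultures, more cells expressing a gene and more RNA per cell cannot be told apart. The 265 numbered zinc finger genes on other chromosomes summed to 810.3 to 816.5 FPKM in control and 852.2 to 860.9 FPKM in knockdown libraries. Other protein-coding genes of chromosome 19 overlapped in sum, at 25561 to 26873 FPKM in control and 25997 to 26225 FPKM in knockdown libraries. The library size implied by FPKM was 0.36 to 0.37% below the read sum in control libraries. In knockdown libraries it was 1.04 to 1.27% above.

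Of the 183 tested members, 16 were higher and 4 lower in the knockdown (limma on log2(FPKM + 1), Benjamini-Hochberg adjusted p under 0.05), or 10.9% in all. Over all genes tested, 19% were called, 8.93% higher and 10.1% lower. The members' share of higher genes, 8.74%, was near that background, and their share of lower genes, 2.19%, was below it. By limma voom on whole reads, 32 members were higher and 7 lower, where the background is 12.9% and 14.5%, and 19 of the 20 calls were shared. Numbered zinc finger genes on other chromosomes had 20 higher and 5 lower of 203, and the other protein-coding genes of chromosome 19 had 160 higher and 21 lower of 665. The share of lower genes was thus 2.46% and 3.16% in these other sets. In all 20 called members the libraries of one group lay above those of the other. No called member changed by as much as 1.5-fold on the log2(FPKM + 1) scale, which shrinks changes at low levels. Under alternative fits, log2 fold changes reached 0.84 for ZNF616 and 0.66 for ZNF160. In the fit reported here, the log2 fold changes of the called members were 0.14 to 0.46 in size.

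**Figure D1:**
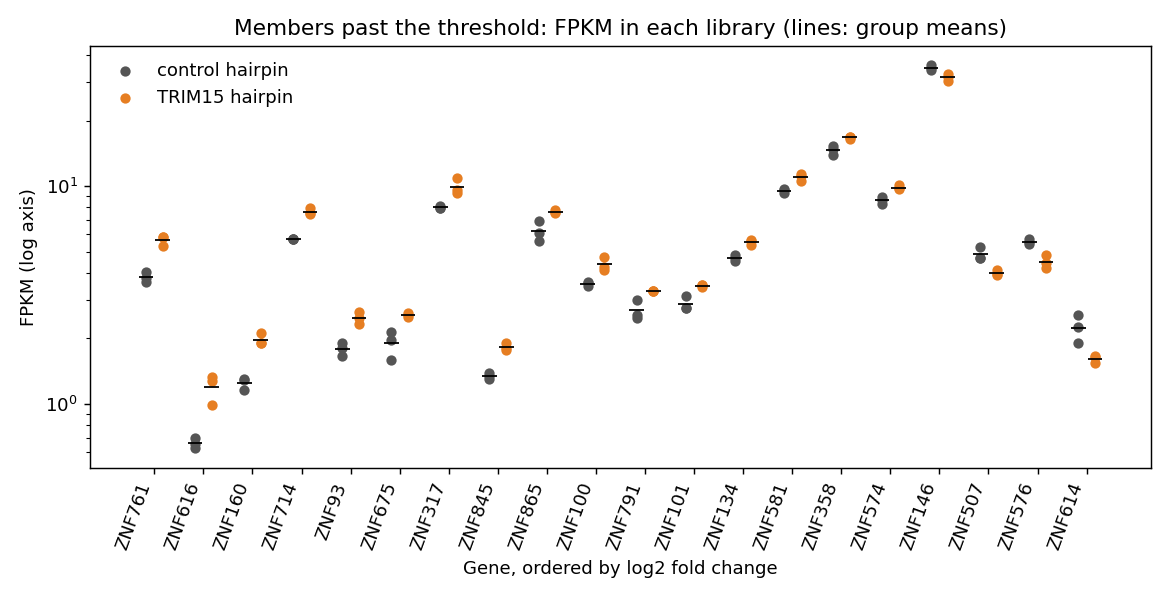
FPKM (log axis) of the 20 members past the threshold in each of the 6 libraries, ordered by log2 fold change, with control libraries in grey, knockdown libraries in orange and lines at the group means. In each gene the 3 points of one group lie apart from the 3 of the other, with ZNF761 at the left (3.83 to 5.66 FPKM on average) and ZNF614 at the right (2.24 to 1.61 FPKM).

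The share of genes called rose with level, and the members followed the same course. Under 1 FPKM, 1 of 39 members (2.56%) and 2.39% of all tested genes were called. Between 1 and 2 FPKM the shares were 5.00% of 60 members and 4.55% of all genes, and between 2 and 5 FPKM 11.3% of 62 members and 13.5% of all genes. Above that the members' shares were higher than the background, but over few genes. Between 5 and 10 FPKM, 5 of 16 members were higher and 1 lower (37.5%, against 23.7%), and from 10 FPKM upward 2 of 6 were higher and 1 lower (50%, against 35.7%).

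**Figure D2:**
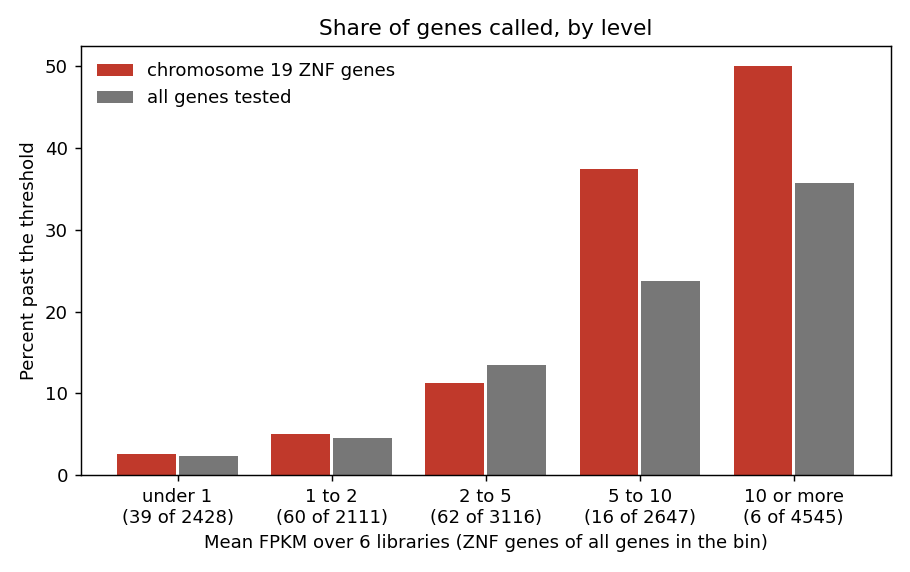
Percent of genes past the threshold (vertical axis, from 0) in 5 bins of mean FPKM, for chromosome 19 ZNF genes in red and all genes tested in grey, with the number of genes in brackets. Both shares climb from 2.56% and 2.39% in the lowest bin to 50% and 35.7% in the highest, which holds 6 members.

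Taken over all tested members, called or not, changes leaned toward higher values in the knockdown. The median log2 fold change of the 183 tested members was 0.062 (quartiles -0.021 and 0.15), against 0.0014 over all genes tested. It was 0.055 in the numbered zinc finger genes on other chromosomes and 0.077 in the other protein-coding genes of chromosome 19. Of the members, 128 (69.9%) had a fold change above 0, against 50.3% of all genes. Groups did not overlap in 52 members that were higher (28.4%) and 13 that were lower (7.10%), where the background over all tested genes is 18.8% and 19%. The shift was thus seen in zinc finger genes elsewhere and in other genes of chromosome 19 as well. Transcript GC content differed widely between these sets, with medians of 42.4% in members, 45.6% in zinc finger genes elsewhere and 60.3% in the other chromosome 19 genes. After a correction for GC content and length, chosen after seeing the data, the members' median was 0.091, with 20 higher and 3 lower. Over all 14847 genes tested, the corrected median was 0.0055 and 2434 were called, against 2824 without the correction. The part of GC content in the shift was not tested.

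**Figure D3:**
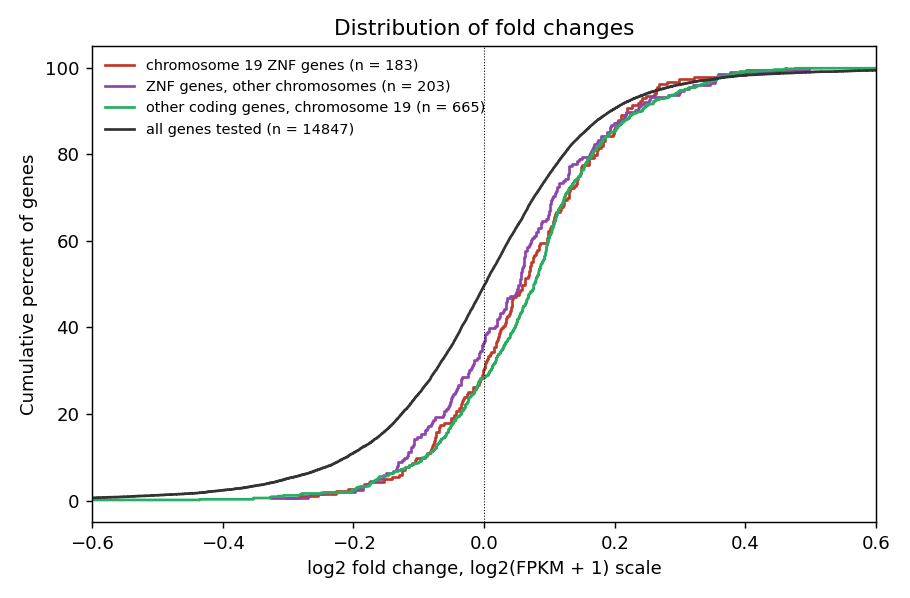
Cumulative percent of genes (vertical axis) by log2 fold change on the log2(FPKM + 1) scale (horizontal axis) for chromosome 19 ZNF genes, ZNF genes on other chromosomes, other protein-coding genes of chromosome 19 and all genes tested. The first 3 curves run close together to the right of the curve of all genes, with medians of 0.062, 0.055, 0.077 and 0.0014.

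The largest rises were in a cluster of KRAB zinc finger genes near the end of the long arm. ZNF761 (ENSG00000160336, chr19:53431993-53458261, plus strand) was at 3.65, 3.80 and 4.06 FPKM in control and 5.84, 5.83 and 5.31 FPKM in knockdown libraries. All knockdown libraries were higher, with a log2 fold change of 0.46 (SE 0.0531, adjusted p = 0.0019). ZNF761 shares 10.1% of its 50-base words with other genes, mostly ZNF765, and overlaps the pseudogene TPM3P9 on its own strand. TPM3P9 was at 3.94 ± 0.384 FPKM in control and 4.29 ± 0.425 FPKM in knockdown (SD, n = 3; adjusted p = 0.45).

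ZNF160 (ENSG00000170949, chr19:53066606-53103436, minus strand), with 20 finger matches, was at 1.29, 1.30 and 1.17 FPKM in control and 1.90, 2.12 and 1.91 FPKM in knockdown libraries. It rose by 0.40 on the log2 scale (SE 0.0648, adjusted p = 0.00709). ZNF616 (chr19:52113091-52139922, minus strand) was at 0.701, 0.626 and 0.653 FPKM in control and 0.986, 1.32 and 1.28 FPKM in knockdown libraries. Its change was also 0.40 (SE 0.0893, adjusted p = 0.0228) over only 83.8 reads on average, and by voom on whole reads it was 0.84. ZNF845 (chr19:53333746-53356906), with 26 finger matches, was at 1.35 ± 0.0402 FPKM in control and 1.83 ± 0.0696 FPKM in knockdown (SD, n = 3; 0.27). ZNF614 in the same cluster went the other way. It was at 2.55, 2.25 and 1.90 FPKM in control and 1.55, 1.64 and 1.66 FPKM in knockdown libraries, and fell by 0.30 on the log2 scale (SE 0.0828, adjusted p = 0.0451). With each of the 6 libraries left out in turn, the call of ZNF616 was lost in 4 fits (highest adjusted p = 0.0792, without knockdown replicate 2), that of ZNF845 in 5 (0.0759, without knockdown replicate 3) and that of ZNF614 in 5 (0.122, without knockdown replicate 1), while those of ZNF761 and ZNF160 held without any 1 library.

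A second run of rises lay near the centromere, in a cluster where 35 of 37 members matched the KRAB pattern. ZNF714 (ENSG00000160352, chr19:21082159-21125270, plus strand), which did not match it, was at 5.73, 5.69 and 5.71 FPKM in control and 7.45, 7.93 and 7.51 FPKM in knockdown libraries. The control libraries differed very little, and the adjusted p of 0.0012 was the lowest of any member (log2 fold change 0.36, SE 0.0366). ZNF93, which silences LINE-1 elements, was at 1.81, 1.90 and 1.66 FPKM in control and 2.48, 2.33 and 2.64 FPKM in knockdown libraries (0.32, SE 0.063, adjusted p = 0.0143). ZNF675, which binds TRAF6 and dampens its signalling, was at 1.60, 1.97 and 2.14 FPKM in control and 2.55, 2.61 and 2.50 FPKM in knockdown libraries (0.30, SE 0.0784, adjusted p = 0.04). ZNF100 (0.24) and ZNF101 (0.21) rose by less. ZNF91, also here, did not pass (0.14, adjusted p = 0.112). The call of ZNF714 held without any 1 library. The call of ZNF93 was lost in 1 of the 6 such fits, without knockdown replicate 3 (adjusted p = 0.0544). Those of ZNF675, ZNF100 and ZNF101 were lost in 5 each, with the highest adjusted p without knockdown replicate 2 (0.109), control replicate 1 (0.0675) and control replicate 2 (0.108). ZNF100 shares 13.5% of its words with other genes.

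Farther from the centromere on the short arm, ZNF317, ZNF791 and ZNF358 rose. ZNF317 was at 7.94, 8.09 and 7.93 FPKM in control and 9.35, 10.9 and 9.57 FPKM in knockdown libraries (log2 fold change 0.28, SE 0.0552, adjusted p = 0.0144). ZNF791 (2.69 ± 0.282 to 3.30 ± 0.0116 FPKM, SD, n = 3) and ZNF358 (14.7 ± 0.720 to 16.7 ± 0.226 FPKM, SD, n = 3) rose by 0.23 and 0.18. ZNF358 shares 19.5% of its words with other genes, mostly AC008878.1, which overlaps it on the same strand. ZNF791 overlaps ZNF490 on the other strand. The calls of ZNF791 and ZNF358 were lost in 5 and 4 of the 6 fits with a library left out (highest adjusted p = 0.131, without control replicate 3, and 0.0693, without knockdown replicate 3), and that of ZNF317 held without any 1 library.

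Genes without the KRAB pattern, 30 of the 183 tested members, supplied 3 of the 4 falls and 6 further changes among the rises. The background over all tested genes is 10.1% lower and 8.93% higher. ZNF146 (ENSG00000167635, chr19:36214602-36238774, plus strand) was at 34.0, 35.9 and 34.9 FPKM in control and 31.6, 30.4 and 32.8 FPKM in knockdown libraries. Its knockdown values were all lower (log2 fold change -0.14, SE 0.0343, adjusted p = 0.0303). ZNF507 (chr19:32345594-32387667), which stands alone on its stretch of the chromosome, was at 4.68, 4.67 and 5.23 FPKM in control and 3.93, 3.97 and 4.12 FPKM in knockdown libraries (-0.23, SE 0.0512, adjusted p = 0.0239). ZNF576 was at 5.53, 5.75 and 5.41 FPKM in control and 4.84, 4.45 and 4.22 FPKM in knockdown libraries (-0.25, SE 0.0523, adjusted p = 0.0169), and overlaps SRRM5 on the same strand. ZNF146 overlaps ZNF565 on the other strand. With 1 library left out, the call of ZNF146 was lost in 4 of 6 fits (highest adjusted p = 0.0915, without control replicate 2), that of ZNF507 in 4 (0.0758, without knockdown replicate 1) and that of ZNF576 in 3 (0.0596, without control replicate 2). After the GC and length correction ZNF146, ZNF507 and ZNF614 were no longer called.

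The rises without the KRAB pattern that have not yet been named were ZNF865, ZNF134, ZNF581 and ZNF574. ZNF865 went from 6.21 ± 0.681 to 7.62 ± 0.157 FPKM (SD, n = 3; 0.26) and ZNF134 from 4.69 ± 0.146 to 5.54 ± 0.164 FPKM (SD, n = 3; 0.20). ZNF581 (0.18) overlaps ZNF580 and CCDC106 on its own strand, and ZNF574 (0.17) overlaps GRIK5 on the other. The calls of ZNF865 and ZNF574 were lost in 5 of the 6 fits with a library left out, and those of ZNF134 and ZNF581 in 2, with the highest adjusted p for ZNF865, ZNF134 and ZNF581 without knockdown replicate 3 (0.11, 0.0607 and 0.0535) and for ZNF574 without knockdown replicate 2 (0.0728). The GC and length correction also ended the calls of ZNF574 and ZNF581. In all, 30 tested members lacked the KRAB pattern, with 6 higher and 3 lower and a median log2 fold change of 0.098. The 153 with the pattern had 10 higher and 1 lower and a median of 0.054. Beside these counts, 8.93% of all tested genes were called higher and 10.1% lower. The genes without it were also expressed more, at a median of 4.36 against 1.59 FPKM, and had a transcript GC content of 60.2% against 42.0%. The part of level and GC content in this difference was not tested. By number of fingers, the median was 0.071 in the 95 members with up to 12 and 0.057 in the 88 with more. Members with 10% or more of their words shared had a median of 0.048 (40 tested, 3 higher) and the others 0.063 (143 tested, 13 higher and 4 lower).

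Clusters were formed by position, with a new one starting where 2 neighbouring members began over 1 Mb apart, which gave 16 clusters of 1 to 59 members. The 3 largest lay at gene starts 55476332 to 58474017 (cluster 16, 59 members), 51571298 to 53519527 (cluster 15, 40) and 19668796 to 24033405 (cluster 5, 37). In cluster 16, 36 of 49 tested members had a fold change above 0, 3 were called higher and 0 lower by limma (2 lower at an unadjusted p under 0.05 and 1 by voom), and the median was 0.096. In cluster 15, 25 of 29 were above 0, with 4 higher, 1 lower and a median of 0.079. In cluster 5, 20 of 26 were above 0, with 5 higher, 0 lower by limma (0 at an unadjusted p under 0.05 and 1 by voom) and a median of 0.085. These 3 clusters held 12 of the 16 rises, but with 49, 29 and 26 genes they also held most of the 183 tested members. The background of higher calls over all tested genes is 8.93%.

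The other clusters of 10 or more tested members were mixed. Cluster 9 (starts 36182060 to 37735833, 26 members), which holds ZNF146, had 6 of 15 tested members above 0 and a median of -0.034, with 1 lower and 0 higher by limma (0 at an unadjusted p under 0.05 and 0 by voom). Cluster 3 (starts 11483427 to 12610918, 26 members) had 7 of 15 above 0 and a median of -0.0036, with ZNF791 as its 1 rise. Cluster 12 (starts 43525497 to 45071500, 24 members) had 12 of 20 above 0, a median of 0.037 and the fall of ZNF576. Cluster 2 (starts 7069444 to 9751993, 16 members) had 11 of 13 above 0, 2 higher and a median of 0.11. Summed FPKM also differed in sign between clusters. The sum was 159.7 to 163.2 FPKM over the control libraries and 173.8 to 176.8 FPKM over the knockdown libraries in cluster 16. It was 46.7 to 47.6 and 52.7 to 54.6 FPKM in cluster 15. Cluster 9 was at 55.6 to 58.3 FPKM in control and 51.0 to 54.3 FPKM in knockdown libraries, of which ZNF146 alone made up 33.3 FPKM on average over the 6 libraries. No difference between clusters was tested. With gaps of 0.5 or 2 Mb, the cluster that held ZNF358 had a median of 0.16 (2 tested members) or 0.029 (28 tested members).

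**Figure D4:**
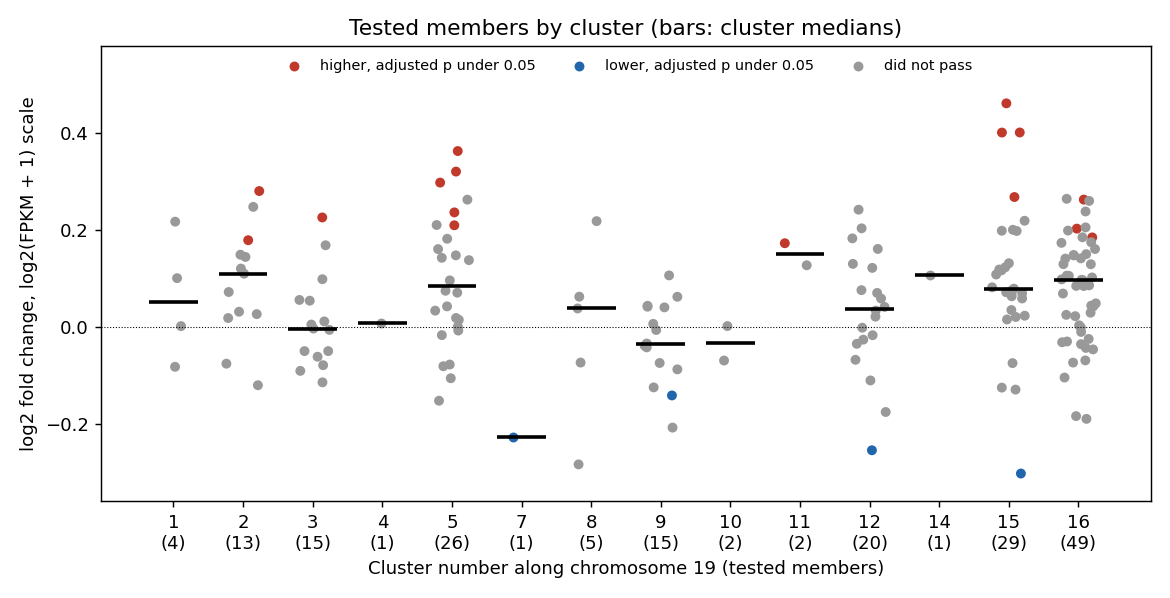
Log2 fold change of each tested member on the log2(FPKM + 1) scale (vertical axis) by cluster along chromosome 19 (horizontal axis, tested members in brackets), with bars at cluster medians, red points higher, blue points lower and grey points not past the threshold. Clusters 5, 15 and 16 have medians of 0.085, 0.079 and 0.096 and hold most red points and most tested members. The medians of clusters 3 and 9 are -0.0036 and -0.034.

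Of the 10 tested members listed for a known role, ZNF146 and ZNF675 passed the threshold and the others did not. The background of calls is 19% over all tested genes and 10.9% over the tested members. ZNF274, which guides SETDB1 to the 3′ ends of zinc finger genes, was at 6.48, 5.68 and 6.14 FPKM in control and 6.07, 6.07 and 5.78 FPKM in knockdown libraries (-0.03, SE 0.0503, adjusted p = 0.78). Its groups overlapped. ZNF473, a component of the machinery that processes histone mRNA, was at 4.02 ± 0.194 and 4.41 ± 0.0447 FPKM (SD, n = 3; adjusted p = 0.146). The imprinted gene ZNF331 was at 2.15 ± 0.0795 and 1.89 ± 0.205 FPKM (SD, n = 3; adjusted p = 0.27). ZNF350, a partner of BRCA1, was at 1.19 ± 0.171 and 1.54 ± 0.117 FPKM (SD, n = 3; adjusted p = 0.117), ZNF420, which restrains p53, at 1.26 ± 0.176 and 1.44 ± 0.305 FPKM (adjusted p = 0.575), and ZNF224 at 1.74 ± 0.141 and 1.88 ± 0.117 FPKM (adjusted p = 0.529). ZNF304 was at 3.27 ± 0.205 and 3.35 ± 0.329 FPKM (adjusted p = 0.85). By voom on whole reads, ZNF350 (log2 fold change 0.38, adjusted p = 0.046) and ZNF91 (0.17, adjusted p = 0.0167) were past the threshold.

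The abundant genes ZNF787, ZNF428 and ZNF444 were also below it in the fit reported here. ZNF787 was at 22.6, 20.1 and 20.9 FPKM in control and 23.5, 23.6 and 23.5 FPKM in knockdown libraries, without overlap (0.15, SE 0.0432, adjusted p = 0.0561). It was past the threshold without control replicate 1 (adjusted p = 0.0104), with a filter at 1 FPKM (0.0455), with median centring (0.048) and by voom on reads (0.00459). ZNF260, in the cluster of ZNF146, had the largest change there at -0.21 (5.82 ± 0.424 to 4.90 ± 0.282 FPKM, SD, n = 3; adjusted p = 0.0544). ZNF260 was past the threshold without control replicate 3 (adjusted p = 0.036), with a filter at 1 FPKM (0.0437) and by voom on reads (0.00276).

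Among listed corepressor and heterochromatin genes, the share called was below the background. All 37 were tested, 2 were higher and 4 lower, with a median log2 fold change of -0.0013 (16.2% called, where 19% is the background). The called ones all averaged over 10 FPKM, a level at which 35.7% of all tested genes were called. TRIM28, the corepressor that binds KRAB domains, was at 153, 154 and 150 FPKM in control and 152, 149 and 148 FPKM in knockdown libraries (-0.03, SE 0.0197, adjusted p = 0.349). SETDB1 was at 4.62 ± 0.225 and 4.61 ± 0.0712 FPKM (SD, n = 3; adjusted p = 0.99). The groups of both genes overlapped. The deacetylase gene HDAC1 rose from 64.5 ± 1.58 to 75.6 ± 2.23 FPKM (SD, n = 3; 0.23), and CBX1, which encodes a heterochromatin protein, from 48.0 ± 0.232 to 51.5 ± 1.43 FPKM (0.10). The heterochromatin protein genes CBX3 and CBX5 fell, CBX3 from 51.2 ± 0.501 to 47.3 ± 0.332 FPKM (-0.11) and CBX5 from 15.2 ± 0.504 to 12.7 ± 0.944 FPKM (-0.25). The histone-binding gene RBBP4 (-0.19) and TRIM24 (-0.26), a relative of TRIM28, fell as well. The calls of CBX1 and CBX5 were lost in 5 and 3 of the 6 fits with a library left out (highest adjusted p = 0.113, without knockdown replicate 3, and 0.0672, without control replicate 3), and that of CBX3 after the GC and length correction (0.126).

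Chromosome 19 genes with C2H2 fingers under other names were a smaller comparison. Of 18 listed, 17 were found by name and 10 were tested, with 2 higher, 0 lower by limma (0 at an unadjusted p under 0.05 and 0 by voom) and a median of 0.081. The share called was 20%, near the background of 19%. ZBTB7A, a repressor of the BTB family, rose from 6.54 ± 0.351 to 8.42 ± 0.215 FPKM (SD, n = 3; 0.32), and ZBTB45 from 3.82 ± 0.275 to 4.78 ± 0.447 FPKM (0.26). The call of ZBTB45 was lost in 4 of the 6 fits with a library left out (highest adjusted p = 0.121, without control replicate 3). ZIM2, ZIM3 and ZSCAN1 were listed at 0 in all libraries.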

How the data were processed

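The authors deposited 1 table of FPKM values per gene and library, with a gene length column; the aligner, the counting step and its use of strand are not given in the sources used here. The submitters' processing notes list build mm10, a mouse build, but all 58735 identifiers, starts, ends and strands equal the human annotation GENCODE 29 (GRCh38). FPKM times gene length gave whole reads for 100% of values (tolerance 0.01).

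Knockdown and control were compared with limma 3.58.1 in R 4.3.3 on log2(FPKM + 1), two-sided, with a mean-variance trend and Benjamini-Hochberg adjustment over the 14847 genes that reached 0.5 FPKM in 3 libraries or more. The 1 added to FPKM shrinks fold changes at low levels, such as near 1 FPKM. Between replicates, squared differences were 1.87 to 2.61 times sampling noise. Members, lists and tests were chosen with earlier results of these data known. Named members were the 8 largest rises and falls, the 4 most abundant, the most abundant and most changed of each cluster with at least 3 tested members, and the 10 tested of 12 listed genes of known role; the other called members were added. Finger, linker and KRAB patterns were searched in each gene's longest translated GENCODE 29 coding sequence, in place of a protein table, which was not used here. The procedure was tested on simulated data.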

Additional observations from a re-analysis of the deposited data

How the results depend on the processing

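The members' median kept its direction under all 16 alternatives run on the whole table and with members that share few words. The fits without a variance trend and with the replicate block leave every fold change as it was, so direction could not change there. Counts of calls did change. Against 16 higher and 4 lower, there were 9 and 1 with no filter on low values, 32 and 7 by voom on reads, and 2 lower without a variance trend. Over all genes, calls numbered 2824 of 14847 in the fit reported here and 1888 of 32030 with no filter. They numbered 4066 by voom, 2187 without a variance trend and 1913 with the replicate block, each of 14847. Without 1 library, 1770 to 2339 of all genes were called. The median of 0.062 became 0.095 with a pseudocount of 0.1, 0.038 with no filter, 0.10 by voom and, in an alternative chosen after seeing the data, 0.091 with the GC and length correction. With 1 library left out, 4 to 13 members were higher, 0 to 4 lower, and the median was 0.055 to 0.071. The higher count was 10 and 11 without control replicates 2 and 3, and 7, 8 and 4 without knockdown replicates 1, 2 and 3. The lower count was 1 without control replicate 2, and 1, 0 and 1 without knockdown replicates 1, 2 and 3 (6 lower by limma at an unadjusted p under 0.05 where it was 0). Of the 20 called members, 4 (ZNF761, ZNF160, ZNF714 and ZNF317) kept their call under every one of the 16 alternatives, and 19 were called by voom. Same-numbered libraries share only a number, with correlations of deviations of 0.0125, 0.0086 and 0.0133; with the replicate block, 6 members were higher and 2 lower. Of 638 values of named members under alternatives, 529 stayed on their side of the threshold, 96 lost a call, 13 gained one and 0 changed sign with a call. Only the 20 called members can lose a call, and the 638 values also include named members that were not called. Among them are values from the fits without a variance trend and with the replicate block, where no sign could change. Of the 39 tested members under 1 FPKM, 2.56% were called, against 2.39% of all genes at that level; the part of depth was not tested.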
